A study of Mus musculus with 12 samples.

Results

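Crebbp and Ep300 encode closely related histone acetyltransferases, coactivators that are recruited to promoters and enhancers by many transcription factors, among them the cAMP-responsive factor CREB. The 8 genes described here, Stk25, Klf7, Shisa4, Nav1, Stk17b, Ctse, Inhbb and Neurl3, all lie on mouse chromosome 1 and were singled out because their levels moved the same way when 1 copy of either coactivator gene was missing. They were found as every probe set whose platform annotation gives exactly 1 of these symbols, which yielded 10 probe sets of the 3127 deposited, 2 each for Klf7 and Ctse and 1 for each other gene.

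The cells were primary bone marrow stroma, the adherent layer that supports blood formation in culture. The 12 Affymetrix arrays held 4 from Crebbp+/- stroma, 4 from Ep300+/- stroma and 4 from wild-type stroma, each labelled as a biological replicate. All mice were C57BL/6 and aged 3 to 4 months, and every culture, wild type included, had grown for 2 weeks and then received 1500 cGy of radiation and fresh medium. The labels name no Cre or tissue-restricted driver for the heterozygotes, and no sort of the stroma by cell type. How many animals fed each culture is not given in the sources used here, so p-values measure the spread between these arrays.

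Values are log2 levels made by the authors with GCRMA, a method that removes background signal, scales arrays to each other and reduces many probes to 1 value. They are relative levels, comparable between arrays for 1 probe set and not between probe sets. Crebbp, the targeted gene, averaged 7.74 ± 0.091 in Crebbp+/-, 8.65 ± 0.12 in Ep300+/- and 8.52 ± 0.058 in wild-type stroma (SD, n = 4 each), a log2 difference of -0.78 for Crebbp+/- against wild type (limma adjusted p = 0.0372). The level of Ep300 was not analysed here, which leaves that label without such a check. The array medians lay between 8.15 and 8.43 in Crebbp+/-, between 7.98 and 8.31 in Ep300+/- and between 8.02 and 8.27 in wild type. Of the stromal and reticular markers, 8 of 12 were measured, namely Cxcl12, Kitl, Lepr, Vcam1, Ebf3, Foxc1, Col1a2 and Col3a1. Their mean level per array was 9.73 to 10.86 in Crebbp+/-, 9.03 to 10.39 in Ep300+/- and 9.71 to 10.83 in wild type. Col1a2 was at most 6.60 in either heterozygote and at least 6.61 in wild type. Its log2 differences from wild type were -1.42 in Crebbp+/- and -1.05 in Ep300+/- (limma adjusted p = 0.135 and 0.965). Those of Col3a1 were 0.68 and -0.47. Crebbp+/- 1 and 3 had low Eif2s3y, a Y chromosome gene, with levels of 2.73 and 2.69, whereas the lowest and highest elsewhere were 8.41 and 10.84.

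The genes belong to different functional classes. Stk25 is a Golgi-associated serine/threonine kinase of the Ste20 class, and Stk17b (DRAK2) is a kinase of the death-associated protein kinase family known for setting the activation threshold of T cells. Klf7 is a zinc finger transcription factor of the Kruppel-like family. Inhbb encodes the inhibin beta B subunit, which dimerizes into activin B, a TGF-beta family ligand. Ctse is an intracellular aspartic protease of antigen-presenting cells and stomach, and Neurl3 is a RING-type ubiquitin ligase related to Drosophila Neuralized. Nav1 is a microtubule-associated protein of migrating neurons, and Shisa4 is a transmembrane protein of the Shisa family, whose founding member in Xenopus holds Wnt and FGF receptors in the endoplasmic reticulum.

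Promoter sequence was matched by symbol for 7 of the 8 genes (Ctse was not among them), from RefSeq on build GRCm38.p6, each covering 250 bases before to 50 after the gene start. The promoters of 4 genes are shown: Stk25 and Neurl3, whose mean differences from wild type were the widest of the members in Ep300+/-, and Shisa4 and Nav1, chromosomal neighbours that moved in opposite directions. They read 5′ to 3′ on the minus strand, at chr1:93635678-93635977 (Stk25), chr1:36273376-36273675 (Neurl3), chr1:135375014-135375313 (Shisa4) and chr1:135585306-135585605 (Nav1). Capitals mark the half-site of the cAMP response element, TGACG or its complement CGTCA, searched on both strands.
Stk25: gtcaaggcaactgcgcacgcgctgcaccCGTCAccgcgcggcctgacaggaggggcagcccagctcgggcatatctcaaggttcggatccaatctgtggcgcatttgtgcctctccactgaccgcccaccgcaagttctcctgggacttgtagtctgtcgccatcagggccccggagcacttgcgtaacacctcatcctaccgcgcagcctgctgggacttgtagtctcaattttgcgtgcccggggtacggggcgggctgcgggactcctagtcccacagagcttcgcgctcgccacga
Neurl3: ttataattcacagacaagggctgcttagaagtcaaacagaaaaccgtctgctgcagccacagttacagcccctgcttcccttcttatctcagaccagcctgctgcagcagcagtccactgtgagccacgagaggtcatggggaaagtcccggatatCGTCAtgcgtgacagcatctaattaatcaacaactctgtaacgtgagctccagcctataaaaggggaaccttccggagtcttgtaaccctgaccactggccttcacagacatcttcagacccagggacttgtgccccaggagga
Shisa4: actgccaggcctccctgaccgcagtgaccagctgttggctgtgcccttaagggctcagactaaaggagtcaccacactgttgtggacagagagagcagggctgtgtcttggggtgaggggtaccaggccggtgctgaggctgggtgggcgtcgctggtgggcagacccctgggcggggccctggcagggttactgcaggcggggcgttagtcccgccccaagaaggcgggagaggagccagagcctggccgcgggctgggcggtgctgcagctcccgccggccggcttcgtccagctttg
Nav1: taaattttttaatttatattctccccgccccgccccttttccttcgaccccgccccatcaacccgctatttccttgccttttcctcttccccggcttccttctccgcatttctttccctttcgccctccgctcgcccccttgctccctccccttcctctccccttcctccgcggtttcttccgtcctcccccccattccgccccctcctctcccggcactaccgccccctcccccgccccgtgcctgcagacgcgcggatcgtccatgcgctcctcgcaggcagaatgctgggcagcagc

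The half-site TGACG was found in 2 of the 7 promoters, at position -222 in Stk25 and at position -94 in Neurl3 counted from the gene start, against 20.8% of the 32851 promoters in the table. The whole element TGACGTCA, which contains the half-site, was in 0 of 7 against 1.79%, and the E-box CACGTG was in 1 of 7 (Stk17b) against 7.15%. The GC box GGGCGG was in 6 of 7, all but Neurl3, against 35.7%, the box CCAAT was in 2 of 7 (Stk17b and Stk25) against 37.4%, and TATAAA was in 2 of 7 (Neurl3 and Nav1) against 13.6%. Median GC content was 64% in the 7 promoters and 52.7% in all. All 7 genes are transcribed from the minus strand, as are 49.8% of the 1644 chromosome 1 genes in the table. These motifs were chosen after the sequences were read, and a match is a string of letters, not a measured site.

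The 8 genes are spread over the chromosome, in the order Neurl3, Stk17b, Klf7, Stk25, Inhbb, Ctse, Shisa4 and Nav1, which are numbers 136 to 752 of 1204 protein-coding genes. Shisa4 and Nav1 have 1 protein-coding gene between them, while the other neighbouring members are separated by 56 to 253 genes.

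The members were chosen on their differences from wild type, so the values that follow against wild type are a description and carry no test. In bulk cultures, fewer cells of a type and less RNA per cell cannot be told apart. The kinase Stk25 was the member most clearly separated from wild type. Its log2 levels were 7.51, 8.0, 8.31 and 8.69 in Crebbp+/- stroma and 8.89, 8.60, 8.16 and 8.29 in Ep300+/- stroma, against 6.94, 6.68, 6.63 and 6.74 in wild type. All 8 heterozygous arrays lay above all 4 wild-type arrays, with a gap of 0.57 between the nearest of them. The log2 difference was 1.38 (SE 0.28), or 2.61-fold, in Crebbp+/- and 1.74 (SE 0.28), or 3.34-fold, in Ep300+/-.

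Klf7 was read by a pair of probe sets that moved together. The leading one, which has the highest mean over the arrays, stood at 8.99, 8.77, 9.35 and 8.72 in Crebbp+/- and at 8.64, 8.98, 8.81 and 8.54 in Ep300+/-, against 8.27, 7.60, 7.86 and 8.15 in wild type. No heterozygous array overlapped the wild-type range, and the log2 differences were 0.99 (SE 0.25) in Crebbp+/- and 0.77 (SE 0.25) in Ep300+/-. The other probe set gave 8.08, 7.60, 8.42 and 7.59 in Crebbp+/-, 7.59, 7.84, 8.31 and 7.53 in Ep300+/- and 7.22, 7.23, 7.4 and 7.36 in wild type, again without overlap. Its log2 differences were smaller, 0.62 (SE 0.27) and 0.51 (SE 0.27) in that order of heterozygotes, and within genotypes the deviations of the 2 probe sets correlated with r = 0.62 over the 12 arrays. Without Crebbp+/- 1 and 3, the arrays with low Eif2s3y, the log2 difference of this second probe set was 0.29 in Crebbp+/-.

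Shisa4 was higher in both heterozygotes as well. It measured 7.24, 7.56, 7.65 and 7.88 in Crebbp+/- and 7.73, 7.31, 7.09 and 7.58 in Ep300+/-, against 5.83, 6.82, 6.64 and 6.78 in wild type. The groups did not overlap, wild-type 1 lay lowest, and the log2 differences were 1.06 (SE 0.28) and 0.91 (SE 0.28), about 2.09-fold in Crebbp+/- and 1.88-fold in Ep300+/-.

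The activin subunit Inhbb stood at 9.06, 8.77, 9.56 and 8.99 in Crebbp+/- and at 8.81, 8.44, 9.13 and 9.22 in Ep300+/-, against 8.05, 7.80, 8.59 and 8.16 in wild type. Crebbp+/- arrays all lay above wild type, whereas Ep300+/- 2 fell below wild-type 3. Its log2 differences were 0.95 (SE 0.28) in Crebbp+/- and 0.75 (SE 0.28) in Ep300+/-.

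Neurl3, the ubiquitin ligase, had an SD of 1.04 in Crebbp+/-, 0.60 in Ep300+/- and 1.03 in wild type (n = 4 each), wider than that of the other leading probe sets. It gave 6.60, 5.21, 7.71 and 6.11 in Crebbp+/- and 5.99, 6.74, 6.53 and 7.45 in Ep300+/-, against 4.85, 4.42, 6.44 and 4.13 in wild type. Wild-type 3 reached into the range of both heterozygotes, so neither was separated from wild type. The log2 differences were 1.45 (SE 0.58) in Crebbp+/- and 1.72 (SE 0.58) in Ep300+/-, and the Crebbp+/- difference was 0.70 without Crebbp+/- 1 and 3 and 0.80 with the Eif2s3y level as a covariate. Low wild-type values on an Affymetrix array may be background, which leaves the size uncertain. Only the arrays at 7.71, 6.74 and 7.45, all heterozygous, reached a linear level of 100. No probe set of the table had fewer than 3 such arrays. If the table was cut by that level, Neurl3 is in it only through the groups where it is high.

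The other 3 genes were lower. Nav1, the microtubule-associated protein, stood at 7.14, 6.94, 6.61 and 6.78 in Crebbp+/- and at 7.4, 7.51, 6.84 and 7.53 in Ep300+/-, against 8.23, 8.02, 7.85 and 8.03 in wild type. All 8 heterozygous arrays lay below wild type, with a gap of 0.32, and the log2 differences were -1.17 (SE 0.24) in Crebbp+/- and -0.71 (SE 0.24) in Ep300+/-. Stk17b, the lymphocyte kinase, stood at 7.55, 8.09, 8.18 and 7.38 in Crebbp+/- and at 8.58, 8.62, 7.65 and 8.08 in Ep300+/-, against 9.52, 9.19, 8.51 and 9.15 in wild type. Crebbp+/- did not overlap wild type, while Ep300+/- 1 and 2 lay above wild-type 3, and the log2 differences were -1.29 (SE 0.32) and -0.86 (SE 0.32).

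For the protease Ctse the 2 probe sets disagreed. The leading one gave 8.95, 8.85, 8.46 and 8.62 in Crebbp+/- and 7.56, 8.0, 8.80 and 7.80 in Ep300+/-, against 9.05, 9.49, 9.34 and 9.42 in wild type, with no overlap in either comparison. Its log2 differences were -0.60 (SE 0.28) in Crebbp+/- and -1.28 (SE 0.28) in Ep300+/-. The second one, whose identifier carries the Affymetrix suffix for probes shared by several transcripts, gave 7.53, 7.96, 7.91 and 7.4 in Crebbp+/-, 7.38, 7.59, 5.69 and 7.03 in Ep300+/- and 7.5, 7.22, 6.10 and 6.87 in wild type. It overlapped wild type in both comparisons, with log2 differences of 0.78 (SE 0.42) and -0.0011 (SE 0.42). The 2 probe sets also ran against each other within genotypes (r = -0.68 over the 12 arrays), so the lower Ctse level rests on 1 probe set.

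**Figure D1:**
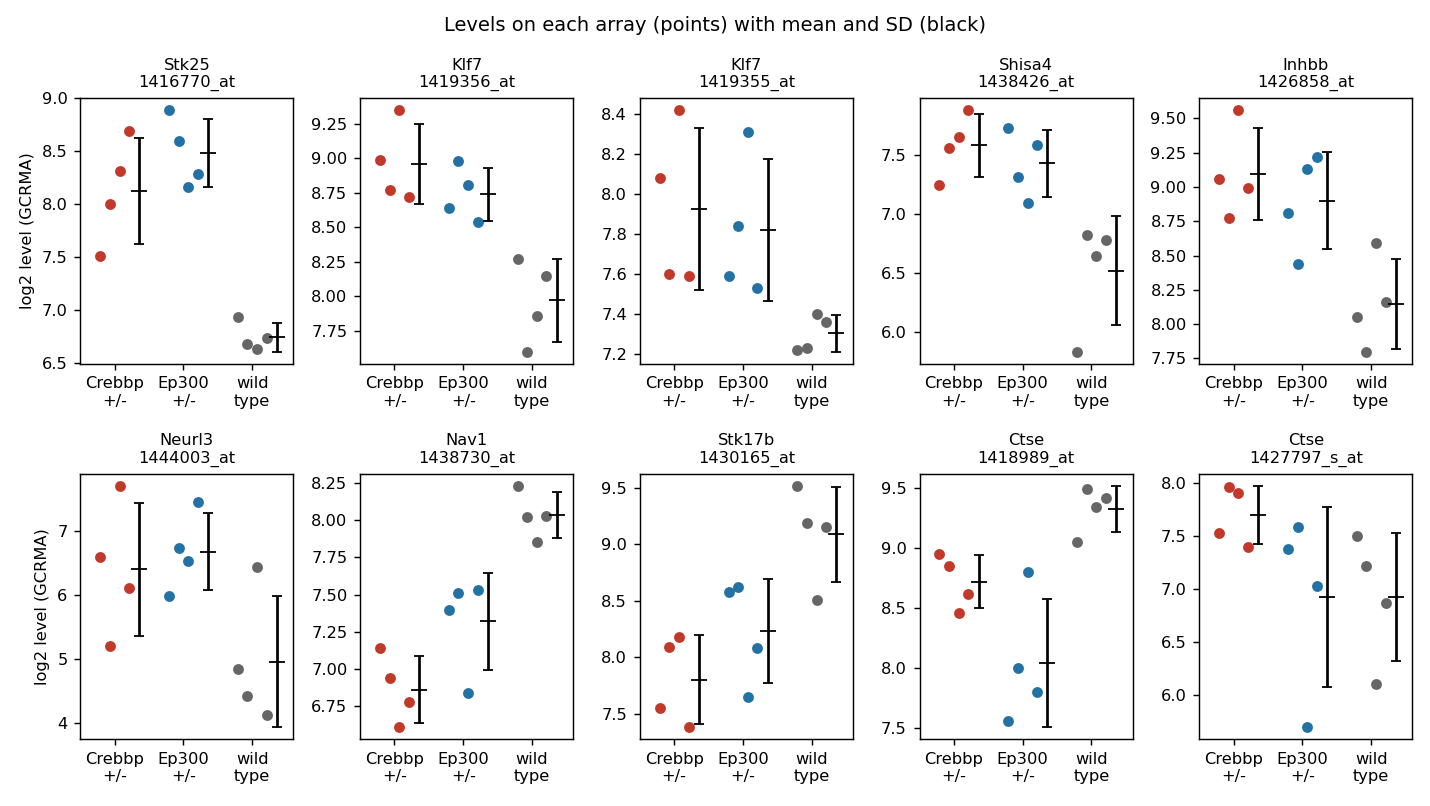
Log2 level of the 10 probe sets of the 8 genes on each array, replicates 1 to 4 from left to right within Crebbp+/- (red), Ep300+/- (blue) and wild type (grey), with mean and SD in black (n = 4 per group) and a separate vertical scale per panel. Stk25, Klf7, Shisa4, Nav1 and the first Ctse probe set show both heterozygotes clear of wild type, while Neurl3 and the second Ctse probe set overlap.

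By probe set, 8 of 10 did not overlap between Crebbp+/- and wild type, where 18.8% of all 3109 tested probe sets did not (5 higher beside 10.4%, 3 lower beside 8.46%), and 6 of 10 did not overlap between Ep300+/- and wild type, where 4.15% did not (4 higher beside 1.99%, 2 lower beside 2.16%). In limma's fit over all probe sets, 5 of the 10, those of Stk25, Shisa4, Nav1, Stk17b and the leading Klf7 probe set, passed an adjusted p of 0.05 in Crebbp+/- against wild type, beside 6.18% of the table (3 higher beside 5.02%, 2 lower beside 1.16%), and 8 of 10 had an unadjusted p under 0.05, beside 26.7%. In Ep300+/- against wild type 0 of the 10 passed by limma, beside 0% of the table, with 8 of 10 at an unadjusted p under 0.05, beside 4.05%. Both comparisons chose the genes and share the wild-type arrays, so nothing is read from these counts. With the replicate number as a block 6 genes passed in Crebbp+/- against wild type, Inhbb being the one added (limma adjusted p = 0.00959, against 0.0629 without the block). In that fit 26.1% of the whole table passed. The count of 5 genes was 3 without wild-type 1, 0 without wild-type 2, 2 without wild-type 3 and 0 without wild-type 4. It was 1, 0, 0 and 4 without Crebbp+/- 1, 2, 3 and 4, was 3 without Ep300+/- 1 or 2, and was 0 without Crebbp+/- 1 and 3 together, a fit in which 4 probe sets of the whole table passed. Across the table the median log2 difference from wild type was 0.24 in Crebbp+/- and 0.049 in Ep300+/-. Quantile normalization brought these medians to 0.022 and -0.031 and left 3 of the 8 genes past the threshold in Crebbp+/-. With it the log2 differences of the 5 higher genes, by leading probe set, were 0.72 to 1.35 in Crebbp+/- and 0.67 to 1.75 in Ep300+/-. The second Klf7 probe set had 0.43 and 0.46. Those of Nav1, Stk17b and the leading Ctse probe set were -1.53 to -0.88 and -1.45 to -0.75.

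**Figure D2:**
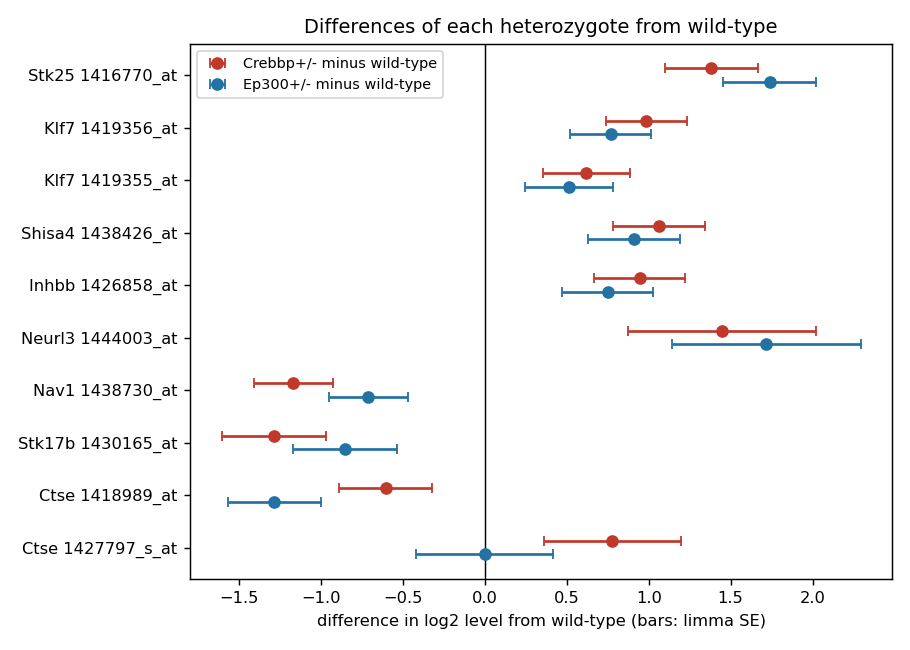
Log2 difference of Crebbp+/- (red) and Ep300+/- (blue) from wild type for each probe set, with limma's SE as bars. The 5 higher genes and the 3 lower genes lie on the same side of 0 in both heterozygotes, and the second Ctse probe set stands at 0.78 in Crebbp+/- and at -0.0011 in Ep300+/-.

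Of the chromosome's 192 probe sets with a single symbol, 8 had both heterozygotes wholly on the same side of wild type, against 40 of all 3109 (1.29%), and 6 of the 8 belonged to 5 of the genes above, which were chosen for it. With the members left out the count was 2 of 182, or 1.10%, near that of the whole table. The narrowest such gap among the members was 0.099, for the leading Ctse probe set, and just outside lay Stk17b and Inhbb, where the ranges overlapped by 0.11 and 0.15. The other 2 probe sets belonged to Coq10b, a coenzyme Q binding protein, and to Btg2, an antiproliferative p53 target. Coq10b is the nearest measured gene on 1 side of Stk17b, with 7 protein-coding genes between. Btg2 is that of Shisa4, with 25 between. Coq10b averaged 10.22 ± 0.49 in Crebbp+/-, 10.11 ± 0.71 in Ep300+/- and 9.46 ± 0.046 in wild type (SD, n = 4 each). Btg2 averaged 9.95 ± 1.26, 9.53 ± 1.74 and 4.98 ± 0.64 by that probe set, in the same order of genotypes, but 10.54 ± 1.47, 10.80 ± 1.46 and 10.06 ± 0.56 by its probe set of highest mean. The log2 differences of Btg2 from wild type were 4.97 in Crebbp+/- (limma adjusted p = 0.0128) and 4.55 in Ep300+/- (limma adjusted p = 0.120) by the first of these, and 0.48 and 0.74 (limma adjusted p = 0.695 and 0.965) by the other.

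Whether the 2 heterozygotes differed in these genes was the comparison that the choice of members did not use directly, although choosing genes that moved alike favours small differences. None of the 10 probe sets passed in Crebbp+/- against Ep300+/- by limma (Benjamini-Hochberg over 3109), where 6.4% of the table passed (4.89% higher and 1.51% lower). At an unadjusted p under 0.05 there was 1 of 10, against 25.2% of the table, and 0 of 10 had groups that did not overlap, against 13.5% (9.13% higher and 4.34% lower). The median absolute log2 difference was 0.31 over the 10 probe sets and 0.43 over all.

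Stk25 differed by -0.36 between Crebbp+/- and Ep300+/- on the log2 scale (95% interval -0.97 to 0.26, limma adjusted p = 0.50). For the leading Klf7 probe set the difference was 0.22 (-0.32 to 0.75, limma adjusted p = 0.679), and for the second it was 0.10 (-0.47 to 0.68, limma adjusted p = 0.877). Shisa4 differed by 0.16 (-0.46 to 0.77, limma adjusted p = 0.825) and Inhbb by 0.20 (-0.41 to 0.80, limma adjusted p = 0.758). The widest interval was that of Neurl3, -1.52 to 0.98 around -0.27 (limma adjusted p = 0.852), which covers differences of over 1 log2 unit.

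Among the 3 lower genes no difference passed either. Nav1 had a log2 difference of -0.46 in Crebbp+/- against Ep300+/- (95% interval -0.98 to 0.063, limma adjusted p = 0.262) and Stk17b one of -0.43 (-1.12 to 0.25, limma adjusted p = 0.459). Ctse, by its leading probe set, had a log2 difference of 0.68 (0.067 to 1.30, limma adjusted p = 0.158), with 3 of 4 Ep300+/- arrays below all 4 Crebbp+/- arrays. Ep300+/- 3 was the exception at 8.80, and without it the difference was 0.93 (limma adjusted p = 0.0337). The second Ctse probe set gave a difference of 0.78 (-0.13 to 1.68, limma adjusted p = 0.273). There Ep300+/- 3 was the lowest array at 5.69, and without it the difference was 0.37. The 2 Ctse probe sets thus moved apart when that array was left out.

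**Figure D3:**
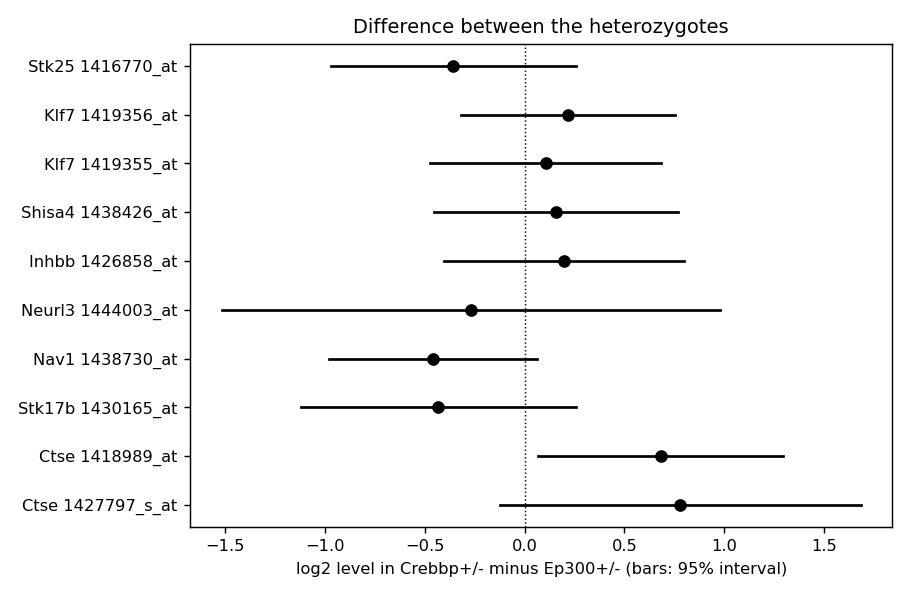
Log2 level in Crebbp+/- minus Ep300+/- stroma for each probe set, with limma's 95% interval. Every interval spans 0 except that of the leading Ctse probe set, which runs from 0.067 to 1.30 and has a limma adjusted p of 0.158.

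Within genotypes the genes did not move as a block. Deviations from the genotype means were correlated over the 12 arrays, which share their cultures and normalization, for the 28 pairs of leading probe sets, the one of highest mean for each gene. The median r was -0.094, and the range ran from -0.64 for Stk25 and Ctse to 0.76 for Inhbb and Neurl3, the 1 pair at or above 0.5. At or below -0.5 there were 4 pairs, Stk25 with Ctse, Klf7 with Shisa4, Nav1 with Inhbb and Stk17b with Ctse. Inhbb and Neurl3 were both highest on array 3 of Crebbp+/- and of wild type and on array 4 of Ep300+/-. The second Ctse probe set followed Stk17b with r = 0.92 and Nav1 with r = 0.71, genes that its leading partner ran against with r = -0.57 and r = -0.48.

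**Figure D4:**
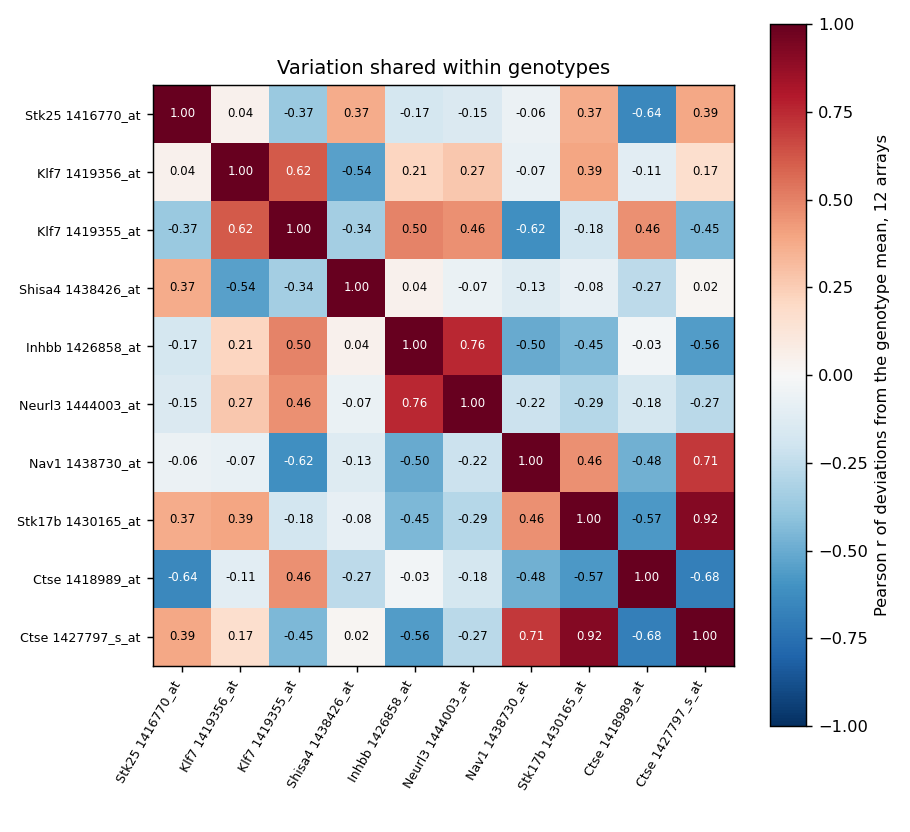
Pearson r between probe sets of their deviations from the genotype mean, over 12 arrays. Inhbb and Neurl3 (0.76), the Klf7 pair (0.62) and the second Ctse probe set with Stk17b (0.92) are positive, while the Ctse pair stands at -0.68.

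Other genes of the table were ranked by how closely their log2 levels followed each member over the 12 arrays, as a description in which genotype means take part. Neurl3 was followed most closely by Ddit3, which encodes the stress transcription factor CHOP (r = 0.93, and 0.88 within genotypes), and by the tyrosine kinase Syk (0.88, and 0.91). Ddit3 stood at 7.42, 6.22, 8.67 and 6.31 in Crebbp+/- and at 6.49, 7.08, 7.71 and 7.41 in Ep300+/-, against 4.20, 4.93, 7.51 and 4.18 in wild type, so that wild-type 3 was high for it as for Neurl3. Inhbb was followed by the growth factor gene Hbegf (0.86, and 0.74 within genotypes) and again by Ddit3 (0.85, and 0.73).

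Stk17b and Nav1 were like each other (r = 0.86, and 0.46 within genotypes). Both were like Kcnab2, a potassium channel beta subunit (0.85, and 0.44 within genotypes, for Stk17b, and 0.88, and 0.26, for Nav1). Nav1 was most like the myeloid receptor Cd300lb (0.90, and 0.64 within genotypes). Stk25 was most like Shisa4 (0.81) and Klf7 (0.75), though within genotypes those values were 0.37 and 0.040. Klf7 was most like the growth factor Pdgfb (0.83, and 0.58 within genotypes) and the macrophage scavenger receptor Cd163 (0.82, and 0.19). Shisa4, after Stk25, was like the muscle stress protein Ankrd1 (0.78, and 0.71 within genotypes). Ctse was like Gsta3, a glutathione transferase (0.80, and 0.29 within genotypes), and the kinase Prkcb (0.78, and 0.41). Among the 20 genes most like each member, 1 to 5 were on chromosome 1, where 140 of the table's 1974 genes with 1 symbol lie. The other members could be among the 20 and were chosen for a like pattern, so nothing is read from this count.

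The nearest measured genes on the chromosome were set against the members, though 2 to 25 protein-coding genes lay between, so none of them was adjacent. The nearest measured genes on either side numbered 14, leaving out Shisa4 and Nav1, and 0 of them passed limma's threshold by their probe set of highest mean in any of the 3 comparisons. Over all their 23 probe sets 1 passed, that of Btg2 given above, in Crebbp+/- against wild type. At an unadjusted p under 0.05 there were, of the 14 genes, 1 in Crebbp+/- against wild type, 1 in Ep300+/- against wild type and 3 in Crebbp+/- against Ep300+/-. Over the whole table these shares were 26.7%, 4.05% and 25.2%, and by adjusted p 6.18%, 0% and 6.4% passed, in that order. With the replicate block 2 of the 14 passed in Crebbp+/- against wild type (Hdlbp and Tnnt2) and 3 in Crebbp+/- against Ep300+/- (the same genes and Srgap2). In that fit 26.1% and 24.4% of the whole table passed in these comparisons. Stk25 lay between Hdlbp, with 2 protein-coding genes between, and Dtymk, with 3 between. Hdlbp had log2 differences of 0.90 in Crebbp+/- and -0.15 in Ep300+/- against wild type (limma adjusted p = 0.214 and 0.980), and Dtymk had 0.31 in each (limma adjusted p = 0.657 and 0.965). Srgap2, 2 genes from Ctse, had 0.46 and -0.93 (limma adjusted p = 0.502 and 0.965). Beyond Nav1, with 4 genes between, Tnnt2 had -2.18 and 0.071 (limma adjusted p = 0.0947 and 0.998).

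Elsewhere on the chromosome 13 further probe sets passed in Crebbp+/- against wild type and 14 in Crebbp+/- against Ep300+/-. With the replicate number as a block these counts were 54 and 53 of 182, in a fit where 26.1% and 24.4% of the whole table passed. By the probe set of highest mean 8 genes other than the members passed in Crebbp+/-. These were F11r (1.36), Rgs4 (1.72), Ifi213 (3.08), Selp (1.54), Ifi209 (1.25), Rgs5 (2.57), Fcgr4 (0.94) and Tor3a (0.89), given as log2 differences with limma adjusted p-values from 0.0184 to 0.0440. In Ep300+/- their log2 differences from wild type lay between -0.39 and 0.29. The 13 were 7.14% of the chromosome's 182 probe sets without the members, beside 6.18% of the whole table and 2.30% to 11.5% on the other chromosomes. The count of 13 fell to 0 when wild-type 4 or Crebbp+/- 2 was omitted, to 1 for wild-type 2 or Crebbp+/- 1, and to 2 for wild-type 3 or Crebbp+/- 3. Omitting Crebbp+/- 4 gave 26, and omitting both arrays of low Eif2s3y gave 0. Calls over the whole table moved too, to 0.161% without wild-type 4, 0.225% without Crebbp+/- 2 and 12.3% without Crebbp+/- 4. Without both arrays of low Eif2s3y that share was 0.129%.

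**Figure D5:**
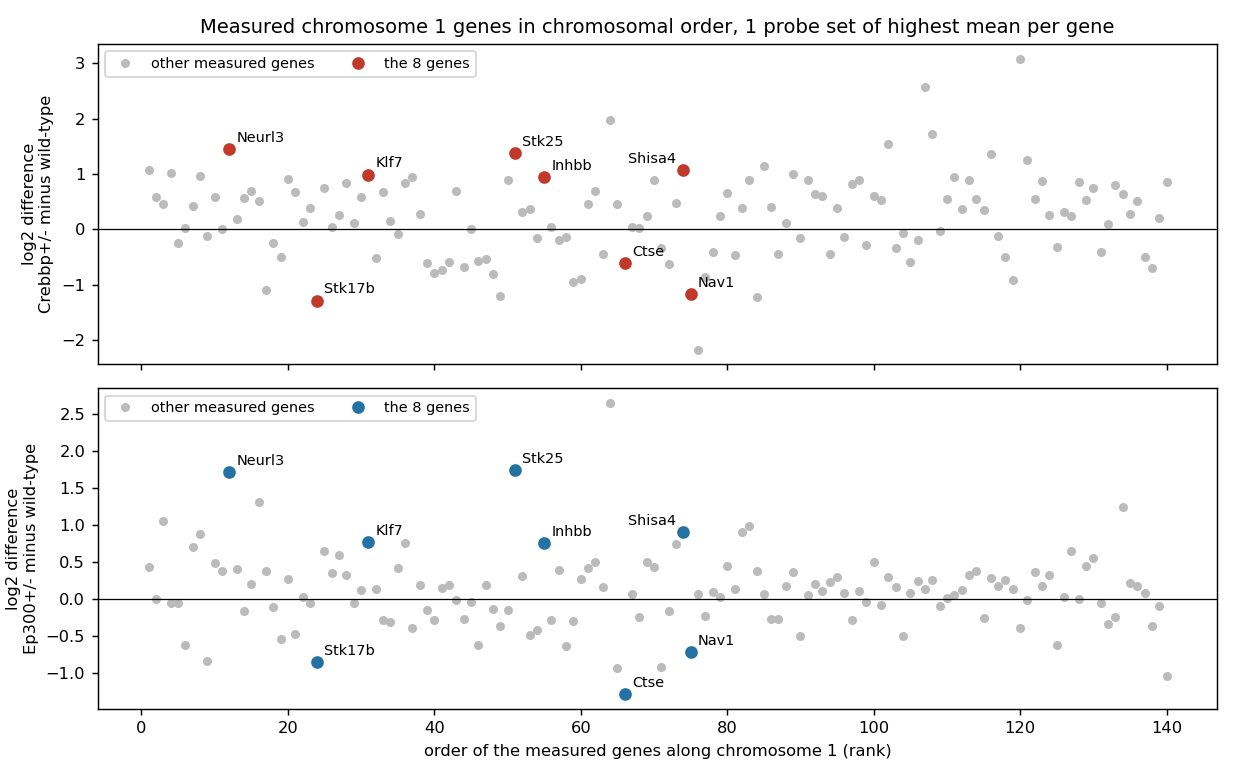
Log2 difference from wild type of the 140 measured chromosome 1 genes in chromosomal order, for Crebbp+/- above and Ep300+/- below, with 1 probe set of highest mean per gene and the 8 genes in colour. The members are spread from the 12th to the 75th measured gene, with higher and lower ones interleaved.

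The relatives and partners of the members were sparsely measured. Of 77 listed genes in 7 family lists, 14 were in the table and 0 passed in any comparison by limma. In Crebbp+/- against wild type 1 had an unadjusted p under 0.05 and 4 passed with array weights, in Ep300+/- against wild type both counts were 0, and in Crebbp+/- against Ep300+/- they were 3 and 7. With the replicate block 1 passed in Crebbp+/- against wild type and 3 in Crebbp+/- against Ep300+/-. In these comparisons 26.1% and 24.4% of the whole table passed with the block, and 40.8% and 40.9% with array weights. At an unadjusted p under 0.05 the table's shares were 26.7% and 25.2%, and 4.05% in Ep300+/- against wild type. Beside Inhbb, the activin antagonist follistatin (Fst) had log2 differences of 0.44 in Crebbp+/- and -0.15 in Ep300+/- (limma adjusted p = 0.399 and 0.968), and the inhibin co-receptor Tgfbr3 had 0.71 and -0.50 (0.335 and 0.965). Among Kruppel-like factors 5 others were measured, and the immediate-early Klf10 had 0.63 and 1.07 (0.510 and 0.965). The kinase Map4k5 had 1.04 and -0.095 (0.0793 and 0.982), and the lysosomal protease Ctsc had 1.15 and 0.91 (0.272 and 0.965). Nav2 had -0.29 and 0.032 (0.546 and 0.998), and the Notch ligand Jag1, a target of Neuralized-type ligases as a class, had 0.50 and -0.10 (0.229 and 0.975).

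Markers of other cells moved with some of these groups. Of the macrophage markers 3 of 12 were measured (Cd163, Cd14 and Aif1), with a mean level per array of 11.69 to 12.48 in Crebbp+/-, 11.38 to 12.81 in Ep300+/- and 10.89 to 11.65 in wild type. Of the endothelial markers 12 of 14 were measured, at 8.13 to 10.01 in Crebbp+/-, 6.73 to 7.64 in Ep300+/- and 7.29 to 8.46 in wild type. Osteoblast markers (3 of 7 measured) were at 8.24 to 8.87, 8.84 to 9.89 and 9.46 to 9.98 in the same order. Lymphoid and granulocyte markers had 0 of 10 and 0 of 8 in the table. Within genotypes, over the 12 arrays, the macrophage mean correlated with the second Klf7 probe set at r = 0.76, with the leading one at r = 0.55, with Shisa4 at r = -0.60, with the leading Ctse probe set at r = 0.46 and with the second at r = -0.14. Its r with the other 5 genes ran from -0.36 (Nav1) to 0.11 (Stk17b). The endothelial mean correlated with Shisa4 at r = -0.80, with the Klf7 probe sets at r = 0.67 and r = 0.56, and with the other 7 probe sets at r from -0.45 (Stk25) to 0.38 (Stk17b). Other marker means gave values of like size. Shisa4 had r = -0.66 with the stromal and reticular mean and r = -0.67 with the adipocyte mean (5 of 8 markers measured). With these the second Klf7 probe set had r = 0.53 and r = 0.45. The osteoblast mean had r = 0.67 with Stk25, r = 0.60 with Stk17b, r = -0.60 with the leading Ctse probe set and r = 0.63 with the second. With the other probe sets its r ran from -0.37 (Inhbb) to 0.28 (Shisa4). With the smooth muscle mean (2 of 6 measured) Inhbb had r = -0.71 and the second Ctse probe set r = 0.73. The other probe sets ran from -0.55 (the second of Klf7) to 0.59 (Stk25). The part of these cell types in the differences was not tested.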

How the data were processed

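Total RNA from 12 stroma cultures was hybridized to Affymetrix arrays, 4 per genotype. The deposited values are log2 levels, and GCRMA is the method the submitters' processing notes name. Neither its version nor the chip definition was given there. Of 3127 deposited probe sets, 18 controls were dropped. Read from the values, no interquartile range was under 0.5001 and no probe set had fewer than 3 arrays at a linear level of 100 or more, so the table covers a variable part of the chip. The highest correlation between any pair of arrays was 0.9635, and none was a duplicate. Symbols came from the platform annotation (2486 probe sets had 1, 176 several and 447 none), and chromosomes and gene order from the RefSeq gene table of GRCm38.p6, which matched 2482 by gene ID.

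Differences of log2 means came from the lmFit and eBayes functions of limma 3.58.1 (R 4.3.3), fitted over all 12 arrays and all 3109 probe sets, 1 mean per genotype, no covariate, with two-sided tests, Benjamini-Hochberg adjustment and a threshold of 0.05. The script was tested on simulated data. The members, lists and tests were chosen with earlier results of these data known. All probe sets of the members are named. The rule for other genes took the nearest measured neighbours, the 2 most correlated genes per member, called chromosome 1 genes up to 10, and, in each family list, called genes and up to 3 of smallest p. Of the neighbours and family genes, those closest to a member or with the widest differences are printed, a choice made after the values were seen. Alternatives were quantile normalization, median centring, a mean level of at least 6 in 1 genotype, trend and robust moderation, 2 genotypes at a time, array weights (limma's gene-by-gene method), the replicate block, an Eif2s3y covariate, averaging the probe sets of each gene, and each array left out. Leaving out Crebbp+/- 1 and 3 together was added after seeing the data. The number of arrays limits the precision.

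Each genotype uses the same replicate numbers, whose meaning is unstated in the labels. Deviations from group means correlated between same-numbered arrays at 0.448 to 0.603 for Crebbp+/- and wild type, 0.294 to 0.513 for Crebbp+/- and Ep300+/-, and 0.0593 to 0.683 for Ep300+/- and wild type. All 4 pairs exceeded 0.1 in the first 2 comparisons but not in the third, and the labels do not say that the cultures were paired. The replicate block allows for such a pairing. With it 26.1% of the table passed in Crebbp+/- against wild type, beside 6.18% without it. In Crebbp+/- against Ep300+/- these shares were 24.4% and 6.4%. The values, intervals and p-values printed are from the fit without the block unless the block is named.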

Additional observations from a re-analysis of the deposited data

How the results depend on the processing

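The Crebbp+/- count against wild type, 5 of the 8 genes, was 3 with quantile normalization, median centring or the 2 genotypes alone. It was 7 with array weights and 0 with the Eif2s3y covariate or without Crebbp+/- 1 and 3. In those fits, in that order, 6.18%, 6.34%, 4.89%, 40.8%, 0% and 0.129% of the whole table passed. The count ranged from 0 to 5 when any 1 array was left out, with 0.161% to 12.3% of the table passing. The count for Ep300+/- against wild type, 0, was 2 with array weights and 0 without any 1 array, and that between the heterozygotes, 0, was 3 with array weights (Stk25, Stk17b and Ctse) and 0 to 1 without 1 array. With array weights, which gave Crebbp+/- 1 a weight of 5.27 and Ep300+/- 4 one of 0.331, 1267 probe sets passed in Crebbp+/- against wild type, so those counts lean on few arrays. Outside the members, the chromosome 1 counts of 13, 0 and 14 (Crebbp+/- against wild type, Ep300+/- against wild type, Crebbp+/- against Ep300+/-) were 87, 2 and 87 with array weights, 54, 1 and 53 with the replicate block, and 0 in all 3 with the Eif2s3y covariate or without Crebbp+/- 1 and 3. The last was 4 with the 2 genotypes alone. Leaving out 1 array gave 0 to 26, 0 to 1 and 0 to 29. The family gene counts of 0 were 4 and 7 with array weights and 1 and 3 with the replicate block for Crebbp+/- against wild type and against Ep300+/-, and 0 to 1 and 0 to 2 without 1 array. With the replicate block the members' counts were 6 (Inhbb added), 0 and 0, and it changed no call between the heterozygotes among the members. Small differences between the heterozygotes changed sign. The dimmer Klf7 probe set was -0.021 with quantile normalization, -0.037 with median centring, -0.18 with the Eif2s3y covariate, -0.22 without Crebbp+/- 1 and 3 and -0.062 to 0.27 without 1 array. Shisa4 was -0.094 with array weights, Inhbb -0.018 without Crebbp+/- 1 and 3, and Neurl3 -0.70 to 0.13 without 1 array. The cause was not tested. For each gene's leading probe set, the differences from wild type kept their sign in every alternative run. The members were chosen for those signs in these arrays, so nothing is read from this. The Ep300+/- difference of the second Ctse probe set, -0.0011, changed sign in 3 runs without 1 array and in 1 other alternative.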
